A study of Homo sapiens with 14 samples.

Results

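The sites described here are all peaks called with the mouse antibody against ubiquitylated histone H2A (uH2A) in DU145 cells, an established human prostate cancer line. They were taken whole from the control and the knockdown peak list of this antibody, which hold 33879 and 7160 peaks, 41039 of the 227479 peaks in the 14 lists of the series. Both groups are DU145 cells under puromycin selection that differ in the stable construct they carry. The control cells carry a scramble construct, and the others a stable EED knockdown, labelled sh3 in the titles. Both were grown in RPMI 1640 medium with serum, and the antibody is a mouse antibody from Millipore. With 1 library in each group, nothing below is checked by replicates. An effect of the culture, of the library's depth or of this construct cannot be told apart from an effect of losing EED. The labels do not say whether the knockdown cells are a clone or a pool. The EED antibody itself gave 13082 control and 1372 knockdown peaks. Every other antibody also gave fewer peaks in knockdown cells, among them RING1A with 56011 and 4072 and H3K27me3 with 35368 and 4205. The EED counts therefore cannot check the label.

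Polycomb repressive complex PRC1 attaches a single ubiquitin to histone H2A through its ligases RING1A and RING1B, with BMI1 as a partner subunit. PRC2, with EED as a core subunit, places H3K27me3, and canonical PRC1 complexes can be recruited by that mark. Other PRC1 complexes reach chromatin without it, so that uH2A need not follow H3K27me3 everywhere. Both marks are known from silenced developmental genes.

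Most uH2A mouse sites of control cells had no peak after EED knockdown. Of 33879 control peaks, 3636 shared at least 1 bp with a knockdown peak and are called kept (10.7%), and 30243 did not and are called lost (89.3%). Of 7160 knockdown peaks, 3370 lay on no control peak and are called new (47.1%). These 3 percentages are the background for the counts that follow. By bases, 5810 kb were covered in control and 1041 kb in knockdown cells, and 554.4 kb were covered in both. That is 9.54% of the control and 53.3% of the knockdown length. The share kept moved with the call rule: it was 6.48% when 1 knockdown peak had to cover at least 50% of the control peak, 18.6% with a knockdown peak within 1000 bp, and 28.2% of the 7160 tallest control peaks. Intervals below are 95% intervals for counting error only, and since neighbouring peaks are not independent they are too narrow.

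Lost peaks seldom lay beside a remaining peak, whereas new peaks mostly lay near former sites. The median gap from a lost peak to the nearest knockdown peak was 40.2 kb (quartiles 8.03 and 159 kb), and 8.93% of lost peaks had a knockdown peak within 1000 bp. The median gap from a new peak to the nearest control peak was 3.00 kb, with 34.9% within 1000 bp and 94.1% within 100000 bp. The control list holds more peaks, so that its peaks lie closer to any position. The distances in the 2 directions are therefore not comparable with each other.

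uH2A mouse peaks were short, and the kept sites were the longer ones. Lengths came in steps of 25 bp from a floor of 75 bp. The median was 150 bp in control (quartiles 100 and 200 bp) and 125 bp in knockdown cells (75 and 175 bp), a difference of 1 step. Kept control peaks had a median of 225 bp and lost ones 125 bp. New peaks were the shortest class, with a median of 100 bp and 35.4% of them at the 75-bp floor, against 6.55% of kept and 21.5% of lost control peaks. At the long end, 58 control and 7 knockdown peaks reached 1000 bp. Of these 58, 47 were kept and 11 were lost.

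**Figure D1:**
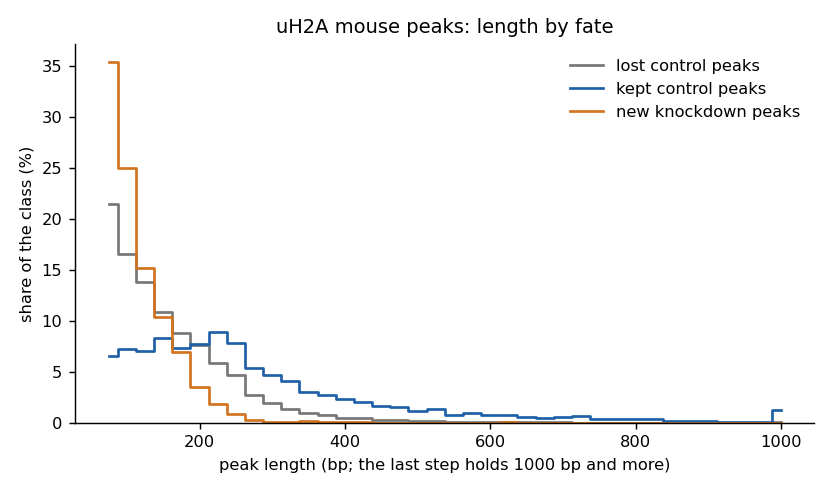
Length of lost control peaks, kept control peaks and new knockdown peaks of the uH2A mouse antibody, in 25-bp steps, as a share of each class (vertical axis, %). New peaks crowd at the 75-bp floor (35.4%), and kept peaks (median 225 bp) extend further to the right than lost peaks (median 125 bp).

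The share kept rose with each length class, from 3.54% of 6729 control peaks of 75 bp (3.11 to 4.01) to 57.0% of 738 peaks of 500 bp or more (53.4 to 60.7). It was 6.17% at 100 to 150 bp, 12.4% at 175 to 250 bp and 26.5% at 275 to 475 bp. A longer peak offers more bases for an overlap. Asking instead whether the centre base of the control peak lay on a knockdown peak gave the same order, from 3.00% at 75 bp to 31.8% at 500 bp or more. Longer peaks were also taller. Within the tallest 25% of control peaks the share kept still ran from 14.9% at 100 to 150 bp (926 peaks) to 58.6% at 500 bp or more (712 peaks). The rise was smaller at lower heights. In the lowest 25% it ran from 3.18% at 75 bp to 6.05% at 175 to 250 bp. In the next 25% it ran from 4.06% at 75 bp to 14.5% at 275 to 475 bp. In the 25% below the tallest it ran from 3.89% at 75 bp to 16.0% at 500 bp or more (4 of 25 peaks). The knockdown list mirrored this: 62.0% of its 75-bp peaks were new, 28.9% of those of 175 to 250 bp, 6.53% of those of 275 to 475 bp, and 1 of 103 peaks of 500 bp or more.

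Sites that were kept were mostly covered over a shorter stretch in knockdown cells. Of the kept control peaks, 3300 paired with a single knockdown peak that met no other control peak. The median length of these pairs was 225 bp in control and 150 bp in knockdown cells. The median change was a fall of 75 bp, where pairs are compared as knockdown minus control (-75 bp, interval -75 to -50, quartiles -150 and 0). The knockdown peak was shorter in 2351 pairs (71.2%), longer in 629 (19.1%) and equal in 320 (9.70%). It was at least 2-fold shorter in 1119 pairs (33.9%) and at least 2-fold longer in 116 (3.52%). In 1862 pairs (56.4%) the knockdown peak lay wholly inside the control peak, and in 377 (11.4%) it enclosed it. Breaking up was less frequent: 205 control peaks met more than 1 knockdown peak, with at most 4 on any control peak. In the other direction, 70 knockdown peaks spanned more than 1 control peak.

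The fall was larger at longer sites, where there was more to lose. Pairs whose control peak was 175 to 250 bp had a median change of -75 bp, those of 275 to 475 bp -175 bp, and the 302 pairs of 500 bp or more -375 bp, from a median of 600 to 225 bp. Pairs with a 75-bp control peak could not become shorter, and 146 of these 208 were longer in knockdown cells. Sorting pairs by control length favours a fall in the long classes. Sorted by knockdown length instead, the 288 pairs of 275 to 475 bp had a median change of -25 bp and the 76 pairs of 500 bp or more -50 bp, with 65.8% of the latter shorter. Shortening thus showed in either sorting, at very different sizes. When only pairs sharing at least 50% of both peaks entered, the median change was -25 bp. That rule leaves out every pair that differs more than 2-fold in length, so the smaller change is partly set by it.

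**Figure D2:**
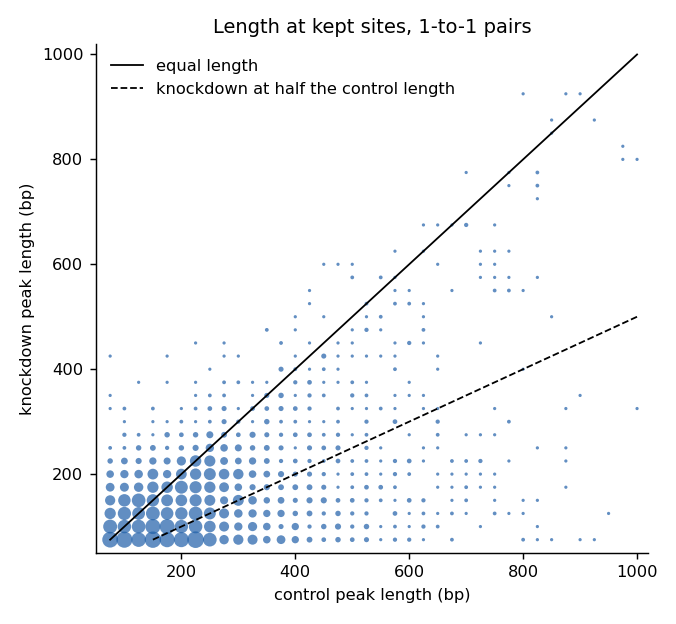
Control length (horizontal, bp) against knockdown length (vertical, bp) at kept uH2A mouse sites paired 1 to 1. Each circle is a combination of lengths, its area growing with the number of pairs. The 3281 pairs with both lengths up to 1000 bp are drawn, and 19 with a longer peak are not. Most pairs lie below the solid line of equal length (71.2% of all pairs were shorter), and 33.9% lie on or below the dashed line of a 2-fold shorter knockdown peak.

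The pairs with the largest fall were on chromosomes 14, 8 and 5. On chromosome 14 a control peak of 1600 bp at 36986901 to 36988500 met a knockdown peak of 425 bp at 36988126 to 36988550. On chromosome 8, 1275 bp at 144656101 to 144657375 was left with 125 bp at its lower end (144656101 to 144656225). On chromosome 5, 1150 bp at 38907501 to 38908650 was left with 100 bp at its upper end (38908551 to 38908650). All 3 carried a RING1A peak and a uH2A rabbit peak in control cells, and none a RING1A peak in knockdown cells. Gains were smaller. The largest were from 75 to 425 bp on chromosome 14 (control 32585376 to 32585450, knockdown 32585176 to 32585600), from 75 to 350 bp on chromosome 17 (control 36385826 to 36385900) and from 175 to 425 bp on chromosome 14 (control 77787426 to 77787600).

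uH2A mouse peaks were clustered in both cell lines. In control cells 70.3% of peaks had another peak of the same list within 10 kb (69.8 to 70.8), against 50.3% in knockdown cells (49.1 to 51.4). A longer list is denser, and this difference of 20.0 percentage points went with the number of peaks. Among the 7160 tallest control peaks, the same number as in the knockdown list, 49.3% had such a neighbour, a difference of -0.96 points (interval -2.60 to 0.67). Kept control peaks had a neighbour in the control list more often (81.3%) than lost ones (69.0%). Of knockdown peaks, 61.1% of those on a control peak and 38.0% of the new ones had a knockdown neighbour within 10 kb.

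Joining control peaks over gaps of up to 10 kb gave 15875 clusters, of which 10065 were single peaks and 371 held 10 or more. The share kept rose with cluster size, from 6.75% of single peaks (6.26 to 7.25) to 12.2% in clusters of 5 to 9 and 17.7% in clusters of 20 or more (16.4 to 18.9). Peaks of the large clusters differed in other ways as well: 62.3% of those in clusters of 20 or more lay on a RING1A peak, against 35.4% of single peaks, and their median length was 175 against 125 bp. Large clusters were thinned unevenly. Over the 371 clusters of 10 or more peaks the median share kept was 8.33%. Of these, 121 kept no peak and 71 had no knockdown uH2A mouse peak at all, while 23 kept at least 50%. The knockdown list had 43 clusters of 10 or more peaks, and each of them overlapped a control peak.

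The largest control cluster spanned 322.7 kb of chromosome 18 (34811601 to 35134275). It held 179 control uH2A mouse peaks covering 34975 bp and 60 knockdown peaks covering 7950 bp, and 41 of the 179 were kept (22.9%). This block carried PRC1 and PRC2 marks together in control cells, with 232 RING1A, 158 BMI1 and 142 H3K27me3 peaks. In knockdown cells it had 0 RING1A, 15 BMI1 and 1 H3K27me3 peak, and uH2A rabbit peaks went from 141 to 53. The second cluster, on chromosome 22 (20095101 to 20310725), went from 140 to 46 uH2A mouse peaks, with 220 control and 2 knockdown RING1A peaks. It had only 4 control H3K27me3 peaks. The third, on chromosome 5 (1356276 to 1524750), went from 116 to 36 uH2A mouse peaks, and the fifth, on the same chromosome (1052201 to 1243950), from 85 to 15. The fourth, again on chromosome 22 (18251101 to 18403000), went from 88 to 36, with 111 RING1A and 0 H3K27me3 peaks in control cells. None of these blocks lay in windows where other antibodies had very tall peaks. These 5 blocks thus kept 12.9% to 22.9% of their uH2A mouse peaks, against 10.7% of the whole list and 17.7% in all clusters of 20 or more. RING1A peaks in each of the 5 blocks numbered 4 or fewer in knockdown cells.

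The largest knockdown cluster behaved differently. On chromosome 2 at 91757476 to 91819975, 32 control and 37 knockdown uH2A mouse peaks were called and 29 of the 32 were kept (90.6%). Several other antibodies had about as many or more peaks there after knockdown, with 32 control and 30 knockdown EED peaks, 64 and 65 BMI1 peaks, 50 and 76 RING1A peaks and 42 and 53 H3K27me3 peaks. RING1B went from 68 to 12 and uH2A rabbit from 32 to 26. How uniquely reads map to this stretch was not tested. The other large knockdown clusters were on chromosome 5 (1462476 to 1524625, inside the third control cluster, 65 control and 29 knockdown peaks) and chromosome 14 (35832126 to 35877525, 33 and 28 peaks). In the cluster on chromosome 14, 22 of 33 peaks were kept, while EED went from 10 to 1 and RING1A from 43 to 3.

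Chromosomes differed widely in density and in the share kept. Control peaks ran from 1.49 per Mb on chromosome 13 to 31.1 per Mb on chromosome 14, with a median of 12.4 over the 22 autosomes. Chromosome X, as read from the number code of the list, had 16 control peaks and 1 knockdown peak, and chromosome Y 15 and 9. Of the 15 peaks on Y, 8 were kept. Among autosomes the highest shares kept were on chromosome 14 (24.2%, 22.8 to 25.7), chromosome 22 (19.3%, 16.8 to 21.9) and chromosome 18 (17.5%, 15.3 to 19.8). The lowest were on chromosome 13 (2.33%, 4 of 172 peaks, 0.64 to 5.85), chromosome 16 (4.08%, 3.11 to 5.24) and chromosome 19 (4.25%, 3.25 to 5.45). Against the 10.7% of the whole list, intervals of the first 3 lay above and those of the last 3 below. Over the autosomes the ratio of knockdown to control peak number ran from 0.0936 on chromosome 16 to 0.410 on chromosome 14, and chromosome 13 with its low share kept had a ratio of 0.157. New peaks made up 85.2% of the 27 knockdown peaks of chromosome 13 and 38.2% of the 1370 of chromosome 14.

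The rabbit antibody against the same mark did not show this order. It kept 483 of its 1929 control peaks on chromosome 14 (25.04%), 32.9% on chromosome 22 and 28.0% on chromosome 18, and 46.7% on chromosome 13, 29.7% on 16 and 30.3% on 19. Over the 22 autosomes the share kept by the mouse antibody had a Spearman rho of -0.34 with that of the rabbit antibody, 0.63 with EED and 0.28 with RING1A. Control peak density per Mb, by contrast, had a rho of 0.96 with uH2A rabbit, 0.94 with EED and 0.92 with RING1A. These correlations over 22 chromosomes are descriptions, since the uH2A and EED libraries share a culture description and the chromosomes share base composition and mappability across antibodies.

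**Figure D3:**
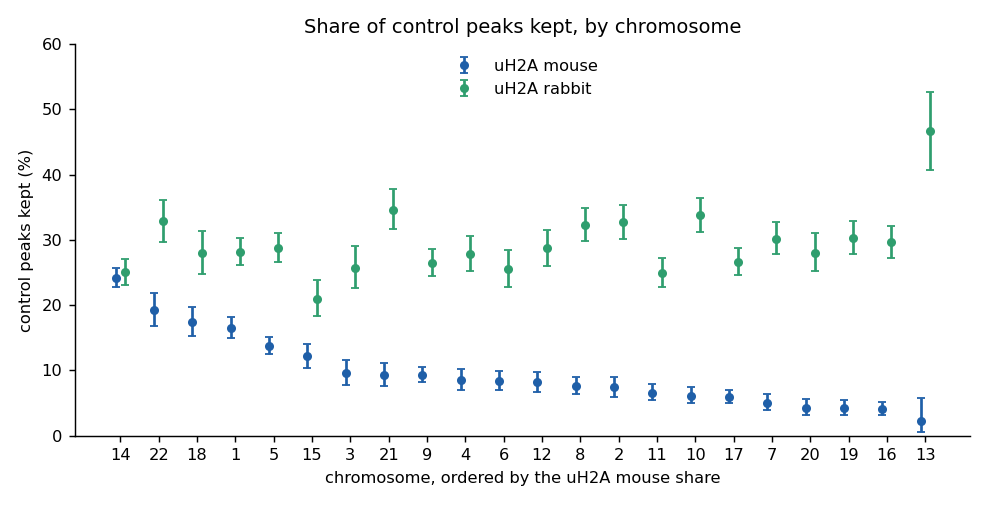
Share of control peaks kept (vertical axis, %) for the uH2A mouse and uH2A rabbit antibodies on each autosome, ordered by the mouse share, with Clopper-Pearson 95% intervals. The mouse share falls from 24.2% on chromosome 14 to 2.33% on chromosome 13, while the rabbit share is highest on chromosome 13 (46.7%).

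Most of the excess on chromosome 14 came from a few stretches. In 5-Mb windows the share kept was 59.7% at 30000001 to 35000000 (188 of 315 control peaks), 57.3% at 35000001 to 40000000 (177 of 309), 53.3% at 45000001 to 50000000 (56 of 105) and 51.2% at 50000001 to 55000000 (148 of 289). These 4 windows, picked after their values were seen, together kept 55.9% of 1018 peaks, and the rest of chromosome 14 kept 10.3% of 2324 (9.12 to 11.6). All other chromosomes together kept 9.26%. In the same 4 windows uH2A rabbit kept 25.7% of its 486 peaks and 24.8% on the rest of the chromosome. EED kept 22.3% there against 5.24%, and RING1A 12.4% against 2.42%. BMI1 kept 16.7% against 16.0%, and RING1B 0.95% of 526 against 3.00% of 267. H3K27me3 kept 3.99% of 827 against 0.44% of 914. uH2A mouse peaks in the 4 windows were also taller than on the rest of the chromosome (median height 47.2 against 38.2) and more often on a RING1A peak (89.2% against 55.8%). Restricted to peaks on RING1A, the shares kept were 60.9% in the 4 windows and 15.3% on the rest of the chromosome, and the part of height was not tested.

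The share kept was higher in the densest 5-Mb windows, largely through windows of chromosome 14 named above, and single dense windows ranged widely. The 29 densest windows, which hold 35.5% of control peaks, kept 13.5% and the rest 9.23%, a difference of 4.23 points (3.52 to 4.96). Among the 29 are those of chromosome 14 at 30000001 to 35000000, 35000001 to 40000000 and 50000001 to 55000000. They kept 59.7% of 315, 57.3% of 309 and 51.2% of 289 peaks, far above 13.5%. These windows hold 188, 177 and 148 of the 1618 kept peaks of the 29. Without them the difference between dense and other windows is smaller, by an amount that was not computed. Windows with 1 to 10 control peaks kept 3.78%, those with 11 to 25 kept 8.24%, with 26 to 50 7.95% and with 51 to 100 8.91%. The window with the most uH2A mouse peaks, on chromosome 5 at 1 to 5000000, had 831 control peaks and kept 12.9%. The next, on chromosome 14 at 100000001 to 105000000, had 721 and kept 6.10%. Chromosome 16 at 85000001 to 90000000 had 423 control and 19 knockdown peaks and kept 6 (1.42%). Other dense windows kept more, with 25.95% of 447 on chromosome 22 at 20000001 to 25000000 and 21.5% of 488 on chromosome 1 at 150000001 to 155000000. Of 173 windows with at least 50 control peaks, 12 kept at least 30% and 67 kept under 5%. Besides those on chromosome 14, high shares were found on chromosome 15 at 20000001 to 25000000 (60.5% of 167 peaks), chromosome 1 at 145000001 to 150000000 (41.1% of 180) and chromosome 5 at 40000001 to 45000000 (36.4% of 151).

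The 12 windows with at least 30% of uH2A mouse peaks kept differed in what else was kept. In some the other antibodies were retained too. On chromosome 21 at 10000001 to 15000000, 54.7% of uH2A mouse and 49.5% of RING1A control peaks were kept, and 27 of 45 EED peaks. On chromosome 1 at 140000001 to 145000000 the shares were 37.9% for uH2A mouse, 47.4% for RING1A and 39.6% for EED. How uniquely reads map to these windows was not tested. In others RING1A peaks were almost all gone. On chromosome 18 at 30000001 to 35000000, which holds part of the largest cluster, 32.5% of 277 uH2A mouse peaks were kept and 2 of 489 RING1A peaks. On chromosome 5 at 40000001 to 45000000, 7 of 329 RING1A peaks were kept, or 2.13%. The windows on chromosome 14 lay between, with 9.24% to 18.1% of RING1A peaks kept.

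**Figure D4:**
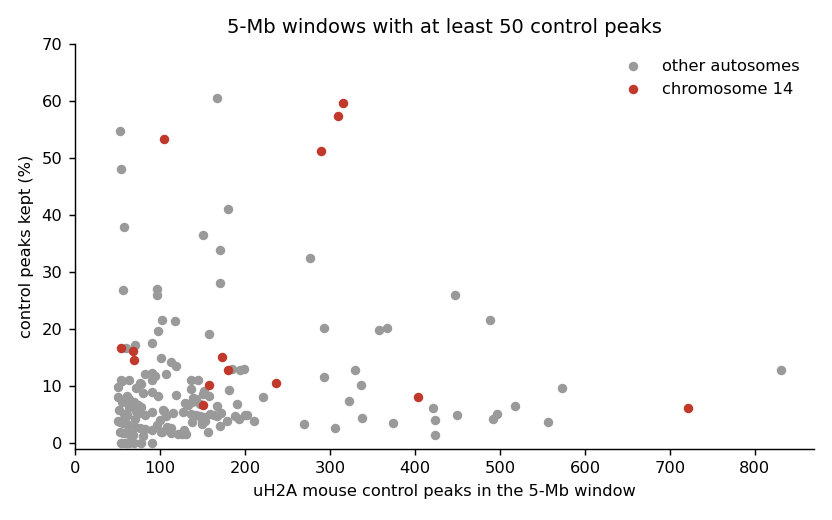
Control uH2A mouse peaks per 5-Mb window (horizontal axis) against the share of them kept (vertical axis, %), for the 173 autosomal windows with at least 50 control peaks. Besides 1 window each on chromosomes 15 and 21, the windows above 50% are the 4 of chromosome 14, and the densest window (831 peaks) kept 12.9%.

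On 3 chromosomes the density broke off along the length, at positions chosen after the data were seen. Chromosome 18 had 1139 control peaks up to position 40000000 and 35 beyond it, with 379 and 0 knockdown peaks. Chromosome 22 had 805 up to 25000000, of which 23.2% were kept, and 166 beyond, of which 0 were kept (upper bound 2.20%). Chromosome 5 had 1772 up to 45000000 and 830 beyond, with 17.9% and 4.94% kept. RING1A peaks broke off at the same positions, with 2242 and 81 on chromosome 18, 1628 and 86 on chromosome 22 and 3521 and 1252 on chromosome 5. EED, BMI1, RING1B and uH2A rabbit also had fewer control peaks beyond each position. On chromosome 18 the numbers were 541 and 46 for EED, 1109 and 46 for BMI1, 85 and 17 for RING1B and 617 and 123 for uH2A rabbit. The share of uH2A rabbit peaks kept was higher beyond the break on chromosome 18 (23.5% before, 50.4% after) and chromosome 22 (30.3% and 36.7%). On chromosome 5 it was lower beyond the break (32.3% and 23.3%). For H3K27me3 the numbers before and after were 456 and 342 on chromosome 18 and 133 and 467 on chromosome 22. On chromosome 5, where the second stretch is much the longer, they were 1079 and 1111, so that H3K27me3 was denser before that break too.

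Kept uH2A mouse sites were mostly RING1A sites of control cells. Of kept control peaks 83.3% lay on a control RING1A peak, and of lost ones 39.2%, a difference of 44.1 points (Newcombe interval 42.7 to 45.4). The difference was 37.6 points for BMI1 (50.4% against 12.8%), 19.7 for EED (30.6% against 10.9%), 16.1 for RING1B (17.2% against 1.09%), 12.5 for uH2A rabbit (34.5% against 22.1%) and 5.28 for H3K27me3 (9.65% against 4.37%). The RING1A library and those of RING1B, BMI1 and H3K27me3 come with another culture description than the uH2A and EED libraries. The RING1A list is also the longest of the series with 56011 control peaks. Counting only the centre base of the uH2A mouse peak gave 43.0 points for RING1A. Asking for a partner peak that covers at least 50% of the uH2A mouse peak, the difference was 41.2 points for RING1A, 11.2 for EED and 6.89 for uH2A rabbit.

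Read the other way, control uH2A mouse peaks on RING1A were kept in 20.3% of 14891 cases and those off RING1A in 3.20% of 18988. In this direction RING1A did not separate them most. The difference was 17.1 points for RING1A, but 56.3 for RING1B and 25.7 for BMI1. For EED it was 16.7 points, for H3K27me3 10.8 and for uH2A rabbit 6.65. Peaks on RING1B were few, with 65.4% of 954 kept. The more PRC1 proteins a site carried, the more often it was kept: 3.05% with 0 of RING1A, RING1B and BMI1, 11.8% with 1, 29.9% with 2 and 67.4% of the 898 sites with all 3. Sites with all 3 were also the longest of these, with a median of 250 bp, and the tallest.

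The other uH2A antibody separated kept from lost sites by fewer points. Without RING1A, peaks shared with uH2A rabbit were kept at 3.81% and those not shared at 3.08%, a difference of 0.73 points (0.06 to 1.51). With RING1A the shares were 23.7% and 18.7%, a difference of 4.99 points (3.57 to 6.42). Within length classes the gap for uH2A rabbit ran from -1.20 points at 75 bp (-2.18 to 0.14) to 1.92 points at 275 to 475 bp (-0.91 to 4.77). For RING1A it ran from 6.11 points at 75 bp (4.85 to 7.53) to 36.0 points at 500 bp or more (18.4 to 47.7, with only 31 peaks off RING1A). EED lay between, with 1.96 points at 75 bp and 20.0 points at 500 bp or more. The gap for RING1A was also present within each of the 4 height classes, from 6.72 points in the lowest to 27.4 in the highest, and outside the densest 5% of 5-Mb windows (15.8 points).

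**Figure D5:**
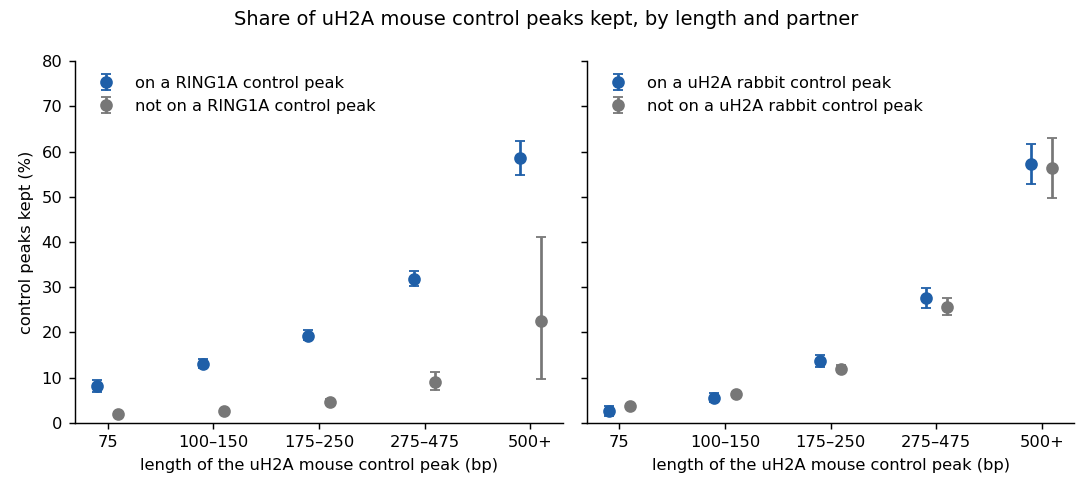
Share of control uH2A mouse peaks kept (vertical axis, %) by length class, for peaks on and not on a control RING1A peak (left) and on and not on a control uH2A rabbit peak (right), with Clopper-Pearson 95% intervals. Peaks on RING1A lie above the others in each of the 5 length classes, while the uH2A rabbit groups differ by at most 1.92 points.

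RING1A itself was rarely called at the kept sites after knockdown. Of the 3028 kept peaks on a control RING1A peak, 450 lay on a knockdown RING1A peak as well and 2578 did not. Where RING1A was called in both cell lines, 73.3% of 614 uH2A mouse peaks were kept, and where it was called in control cells alone, 18.1% of 14277. The corresponding shares were 63.6% and 20.4% for EED and 18.8% and 14.2% for uH2A rabbit. Retention of RING1A or EED thus went with retention of uH2A mouse peaks far more than retention of uH2A rabbit did. uH2A mouse peaks where RING1A was called in both were also taller (median height 55.1 against 39.3). The same held for EED (60.1 against 42) and less so for uH2A rabbit (42.1 against 39.1). The part of height and length was not tested, and the RING1A libraries come with another culture description.

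New uH2A mouse peaks lay on control RING1A and BMI1 peaks about as often as lost ones, and on RING1B more often. Of new peaks, 40.7% lay on a control RING1A peak, against 39.2% of lost peaks (difference 1.49 points, -0.25 to 3.24), and 13.1% against 12.8% lay on a control BMI1 peak (0.22 points, -0.94 to 1.46). On control RING1B the shares were 3.32% of new and 1.09% of lost peaks (2.23 points, 1.66 to 2.90). They met control EED less often (3.65% against 10.9%) and control uH2A rabbit less often (8.61% against 22.1%). In knockdown cells new peaks lay almost alone: 2.43% were on RING1A, 2.11% on uH2A rabbit, 1.57% on BMI1, 0.77% on H3K27me3 and 0.30% on EED. Knockdown peaks on former sites lay on these more often, at 12.03%, 14.1%, 15.9%, 8.05% and 8.79%.

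Single regions show these classes. The longest lost peaks were on chromosome 21 at 45139551 to 45140975 (1425 bp) and 45187001 to 45188300 (1300 bp) and on chromosome 14 at 105884801 to 105885950 (1150 bp). All 3 carried uH2A rabbit, EED, RING1A and BMI1 in control cells. The nearest knockdown uH2A mouse peak was 2675, 350 and 125 bp away, so that the last lay at the edge of a remaining peak. In knockdown cells uH2A rabbit was still called on both regions of chromosome 21, and none of the 6 other antibodies on that of chromosome 14. The tallest lost peaks outside windows with very tall peaks of other antibodies were named on different chromosomes only. The first, on chromosome 11 at 119612526 to 119612900 (height 83.4), lay 11575 bp from a knockdown peak. That on chromosome 1 at 154909001 to 154909425 (height 81.4) lay 24850 bp from a knockdown peak. The next, on chromosome 22 at 18455126 to 18455400 (height 80.3), lay 250 bp from a knockdown peak.

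The longest kept peak covered 2525 bp of chromosome 15 (20561776 to 20564300). The next covered 2300 bp of chromosome 14 (51560101 to 51562400) and 2050 bp of chromosome 21 (9855976 to 9858025). The site on chromosome 14 carried all 6 other antibodies in control cells and uH2A rabbit alone in knockdown cells. The sites on chromosomes 15 and 21 each had 5 others in control cells, and 4 and 5 in knockdown cells. The site on chromosome 21 lay in a window where other antibodies had very tall peaks.

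Long new peaks were rare, with 1 of 500 bp or more. The longest were on chromosome 9 at 132096601 to 132097225 (625 bp), where none of the 6 other antibodies was called in either cell line, on chromosome 18 at 12429726 to 12430150 (425 bp) and on chromosome 9 at 140781026 to 140781450 (425 bp, 25 bp from a control peak). The tallest new peak outside windows of very tall signal was on chromosome 19 at 51357876 to 51358125. Its height of 111 ranked 23 of 7160 in the knockdown list, the nearest control uH2A mouse peak was 42975 bp away, and no other antibody had a peak there in either cell line. The next on different chromosomes were on chromosome 17 at 41382101 to 41382275 (height 66.6) and chromosome 14 at 33379301 to 33379525 (height 61.3). Both lay on RING1A, RING1B and BMI1 peaks of control cells.

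Against the other lists of the same culture description, uH2A mouse kept fewer sites than uH2A rabbit and more than EED. The lengths of the knockdown lists have the same order, with 11327 peaks for uH2A rabbit against 27077 in control, 7160 against 33879 for uH2A mouse and 1372 against 13082 for EED, so that list size and share kept cannot be told apart here. The share kept differed from uH2A rabbit (28.8%) by -18.1 points (-18.7 to -17.5) and from EED (5.79%) by 4.95 points (4.42 to 5.46). New peaks were a larger part of its knockdown list, 47.1% against 30.2% for uH2A rabbit and 42.9% for EED. At kept sites 71.2% of uH2A mouse and 70.2% of uH2A rabbit pairs were shorter in knockdown cells, a difference of 1.07 points with an interval of -0.82 to 2.93. Shortening by at least 2-fold was more frequent for uH2A mouse, 33.9% against 21.9%, a difference of 12.01 points (10.1 to 13.9). EED pairs were shorter more often than uH2A mouse pairs, 79.2% against 71.2% (mouse minus EED -7.91 points, -11.1 to -4.42). They were also more often at least 2-fold shorter, 39.0% against 33.9% (-5.10 points, -9.08 to -1.22). Control peaks of the rabbit pairs were longer, with a median of 300 bp.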

How the data were processed

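ChIP-seq peak lists of 14 libraries, 1 per antibody and cell line, were used. Per the submitters' processing notes, the authors aligned reads with Bowtie to hg19. Peaks came from HPeak, by the names of the deposited lists, with 1 list per library. The sources used here give no Bowtie version, no calling settings and no statement on an input. The deposited lists have no header. Besides positions they give a length, other columns of undefined meaning, and a height, taken as the authors' peak signal from its values and not normalised between libraries. It was used to rank or filter peaks, and across both lists in 1 alternative. Read totals are unknown, so precision is limited by peak numbers. The chromosome codes above those of the autosomes were taken to be X and Y.

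Overlap meant at least 1 bp. Shares carry Clopper-Pearson, ratios exact conditional and differences Newcombe intervals (95%), and the interval of a median rests on order statistics. No p-value was computed. Windows of very tall signal are stretches of 100 kb, plus the adjoining ones, with a peak over 10 times its library's median height for 2 or more other antibodies. Regions were named by rules on length, height, length change, cluster size and share kept. The 5-Mb windows and breaks named were picked with their values in view. The sites and rules were chosen with earlier results of these data known. Promoter counts planned for named genes are not analysed here, since no hg19 annotation or genome was used. Functions were tested on simulated lists. Python 3.11.15, numpy 2.4.6, pandas 2.3.3, scipy 1.17.1 and matplotlib 3.10.9 were used.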

Additional observations from a re-analysis of the deposited data

How the results depend on the processing

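No paired analysis was possible because each group has 1 library. Of 78 alternative values of 13 results, 43 moved and 1 changed sign. With the 7160 tallest control peaks, the difference in clustering was -0.96 points, the share kept 28.2%, the share new 69.1% and the difference in median length -125 bp. The span of the share kept over autosomes was then 42.5 points, with an interval of 1.86 to 83.2, too wide to tell whether it had grown. With a height threshold for both lists at the control median, the ratio of peak number was 0.115, the share kept 7.87%, the share new 29.3% and the difference in median length 0 bp. Overlap of at least 50% of the peak asked about (for the length change, of both peaks) gave 6.48% kept, 52.3% new, a length change of -25 bp and 41.2 points for RING1A. Counting peaks within 1000 bp gave 18.6% kept, 30.8% new and 33.6 points for RING1A. A gap of 1 kb gave a difference in clustering of 11.7 points. Added after the data were seen, leaving out the densest 5% of 5-Mb windows gave 9.23% kept, 49.9% new, 22.3 points in clustering, 0 bp in median length and 45.5 points for RING1A. Leaving out the 4 windows of chromosome 14 gave 9.33% kept, 49.0% new, 24.4 points in clustering, a span of 16.9 points over autosomes and 42.1 points for RING1A. The causes were not tested. The other 34 stayed within the interval of the result, or within 1.5-fold for the ratio. Unknown depth limits every count of lost peaks: a lost peak is a site without a call, which need not be a site without the mark.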
